A study of Mus musculus with 10 samples.

Results

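Expression of 10 genes that are known for their part in the epithelial state (Esrp1, Esrp2, Grhl2, Ovol1, Elf3, Ehf, Elf5, Klf5, Trp63 and Rab25) was examined in 10 mouse tumors by 2-colour Agilent microarray. The genes were chosen by name, with earlier results of these data known, as were the gene lists used below. Shares of all probes given beside their counts are therefore a description and no independent evidence. They were read by 20 of the 41174 probes that were not controls, and 4 of these probes (those of Esrp1 and Esrp2) were listed under the older symbols Rbm35a and Rbm35b. 9 of the genes encode transcription or splicing regulators, whereas Rab25 encodes a small GTPase of vesicle recycling. The mice in which the primary tumors arose carried MMTV-Cre, which is active in the mammary epithelium, on a C57BL/6 background. The 5 adenocarcinomas (tumors 105, 131, 470, 17 and 85) were mammary tumors of double mutant mice, in which the Cre activates both the Pik3ca H1047R and the Trp53 R270H allele. The sarcomatoid group held 5 samples from 3 primary tumors. Tumors 323 and 307 were each measured in the mammary gland and as a lung tumor, which grew after a cell line from that tumor was injected into the tail vein of a recipient mouse (genotype not given in the sources used here). In the study's methods, 1 of these 2 tumors arose in such a double mutant mouse and the other in a mouse with Pik3ca H1047R and MMTV-Cre alone, whose tumor had gained a Trp53 R245H change, but the labels do not say which is which. Tumor 594, the third, is then the mammary tumor of the mouse with Trp53 R270H and MMTV-Cre alone. Genotype therefore differs within the sarcomatoid group and between the groups, the lung samples passed through culture as 1 line each, and these features cannot be told apart from histology or site. The ages of the mice are not given in the sources used here.

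An epithelium is kept by transcription factors that hold junction and keratin genes active and by splicing factors that choose epithelial exons. The ESRP proteins bind RNA and favour the epithelial exons of Fgfr2, Cd44, Ctnnd1 and Enah. GRHL2, of the Grainyhead family, maintains E-cadherin and claudin genes, and OVOL1 is a zinc finger repressor of mesenchymal genes. ELF3, EHF and ELF5 are ETS factors of epithelia, and ELF5 drives the alveolar, milk-producing lineage of the mammary gland. KLF5 is a Krüppel-like factor of proliferating epithelium, and p63 (Trp63) defines the basal layer. In an epithelial-mesenchymal transition (EMT), factors such as ZEB1, ZEB2 and the Snail proteins repress epithelial genes through E-boxes of the sequence CACCTG.

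The probes lay on 9 chromosomes, and Ehf and Elf5 were neighbours on chromosome 2, with 167 kb between their nearest probes (mouse build mm7, as the scanner file gives it). The brightest probe of Esrp1 was at chr4:11259829-11259888, that of Esrp2 at chr8:104729504-104729563, that of Grhl2 at chr15:37474056-37474115, that of Ovol1 at chr19:5444015-5444074, that of Elf3 at chr1:135143536-135143595, that of Ehf at chr2:103115014-103115073, that of Elf5 at chr2:103301588-103301647 and that of Trp63 at chr16:25553466-25553525. The brightest Klf5 probe spanned chr14:93704580-93714312 and the Rab25 probe chr3:88656153-88656542. These are the positions of probes on the build, which carries no exon or UTR annotation in the files.

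Promoters of 3 of the 10 genes were found in the RefSeq table (build GRCm38.p6, 250 bases before to 50 after a start site), 1 each for Elf3 and Rab25 and 2 for Elf5. They are shown as background, and a link between their motifs and the levels of the genes was not tested. CACCTG or its reverse complement CAGGTG was found in all 4 of these promoters and in 20.2% of the 32851 promoters of that length. The Grainyhead motif AACCNGTT (or AACNGGTT) was found in the Rab25 promoter only and in 2.09% of all promoters. The 2 motifs do not overlap in the windows below, which run 5′ to 3′ on the strand of the gene with 1 match a window in capitals. A further E-box match of Rab25, CAGGTG, began 53 bases before the start site and is left in lower case at the end of its E-box window. For Elf5, 4 E-box matches were counted over its 2 promoters. The 2 windows shown are both placed from the start site of 1 of these promoters, so not every match is shown.
Elf3 E-box, chr1:135258595-135258624, minus strand: gaatatgcaaatCACCTGggacagggagcc
Elf5 E-box, chr2:103411931-103411960, plus strand: aggaccctgctaCACCTGggaggctgctta
Elf5 E-box, chr2:103411974-103412003, plus strand: cagaggaggtgcCACCTGcctggaagcagt
Rab25 E-box, chr3:88548326-88548355, minus strand: catcgctccaccCACCTGtgccccaggtgc
Rab25 Grainyhead motif, chr3:88548363-88548392, minus strand: agcagacacctAACCTGTTtaacctgtctg
The E-box of the first Elf5 window began 155 bases before the start site and that of the Elf3 window 140 bases before it. These are matches of letters, and binding was not measured.

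Values are log2 ratios of tumor RNA over a common reference RNA on the same array, so that 0 means an equal signal in both and each unit a doubling. The labels put the tumor in the green (Cy3) channel, but green varied less between arrays (mean SD 0.737 on the log2 scale) than red (0.975), so red was read as the tumor. The authors' normalized table runs the same way, with correlations of 0.81 to 0.95 between its columns and the log ratios of red over green. This direction is therefore likely, and the dye label alone goes against it. On 52.2% to 83% of probes the red signal was well above background. A dim spot is drawn towards 0 by the background correction, so that differences of dim genes are understated. The 10 arrays were extracted with 3 scanner software versions, which held 1 (mammary 323), 4 (307, 594, 105 and 470) and 5 arrays (both lung tumors, 131, 17 and 85). No version held both a lung and a mammary sarcomatoid tumor. Tumor 470 stood apart from the other adenocarcinomas. It was the lowest of the 5 for 9 of the 10 genes, against 22.9% of all probes, and comparisons are therefore given with and without it. Because this tumor was set apart by the values of these same genes, leaving it out favours lower and less variable differences, and values without it are a description and no independent evidence. In bulk tumors, fewer epithelial cells and less RNA per epithelial cell cannot be told apart.

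**Figure D1:**
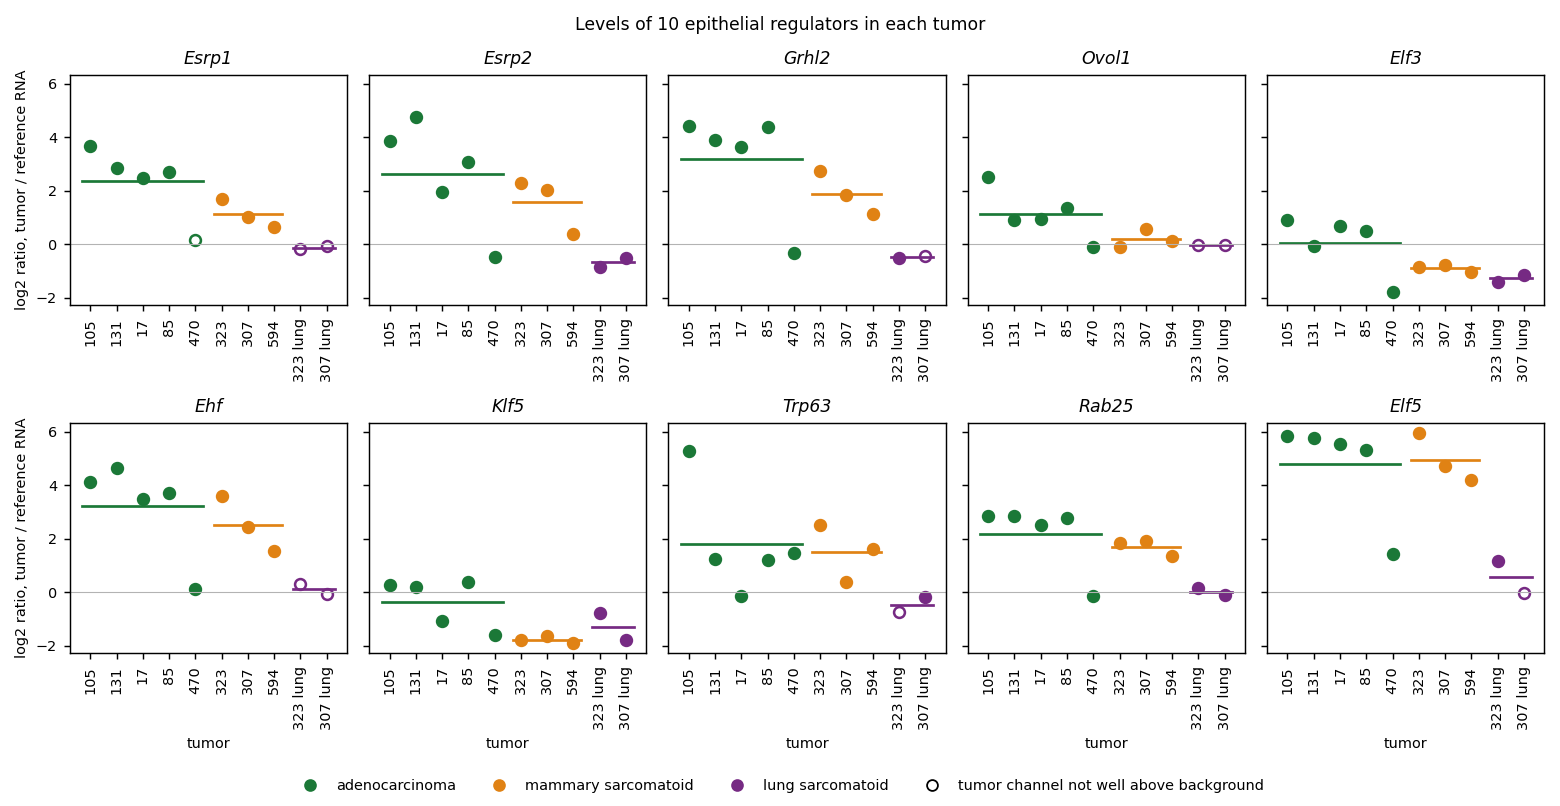
Log2 ratio of tumor over reference RNA (y axis) for the brightest probe of each gene in the 10 tumors (x axis), with group means as lines and open points where the tumor channel was not well above background. The lung tumors and adenocarcinoma 470 sit near or below 0 for Esrp1, Esrp2, Grhl2, Ovol1 and Rab25. The other 4 adenocarcinomas sit highest for Esrp1, Grhl2, Ovol1, Elf3 and Rab25. With tumor 470 left out, 3.54% of all probes separate the groups in this way. In the authors' normalized table Esrp1 does not, as mammary tumor 323 lies above adenocarcinomas 131 and 17.

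The group means of both splicing regulators were highest in the adenocarcinomas, lower in the mammary sarcomatoid tumors and lowest in the lung tumors. Single tumors departed from this order. The log2 ratio of Esrp1 was 3.69 in tumor 105, 2.87 in 131, 2.49 in 17 and 2.70 in 85, but 0.16 in tumor 470. In the mammary sarcomatoid tumors it was 1.69 (323), 1.04 (307) and 0.63 (594), and in the lung tumors -0.19 (323) and -0.05 (307). On this scale the 4 adenocarcinomas other than 470 were above every sarcomatoid sample, and both lung tumors were below all 3 mammary sarcomatoid tumors. In the authors' normalized table mammary tumor 323 (4.44) was above adenocarcinomas 131 (4.14) and 17 (3.74), so the 2 histologies overlapped there even without tumor 470. The Esrp1 probe was not well above background in tumor 470 or in either lung tumor. The fitted difference between lung and mammary sarcomatoid tumors was -1.24 ± 0.85 (SE), or 2.36-fold lower in the lung, where background limits its size, and did not pass the test (adjusted p = 0.833 in limma). A second Esrp1 probe was not well above background on any array.

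Esrp2, the paralog of Esrp1 with the same exon targets, was detected on every array. Its value was 3.85 in tumor 105, 4.76 in 131, 1.94 in 17, 3.06 in 85 and -0.48 in 470. The mammary sarcomatoid tumors had 2.30 (323), 2.01 (307) and 0.40 (594), and the lung tumors -0.86 (323) and -0.50 (307). Tumor 17 lay below mammary tumors 323 and 307, so the groups overlapped for Esrp2 even without tumor 470. A second Esrp2 probe gave the same lowest tumor (323 lung, -0.65) and the same highest (131, 4.25).

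Grhl2, the regulator of junction genes, was high in 4 adenocarcinomas and below the reference in the fifth. Its log2 ratio was 4.43 in tumor 105, 3.88 in 131, 3.65 in 17 and 4.38 in 85, and -0.33 in tumor 470. The mammary sarcomatoid tumors were intermediate, at 2.73 (323), 1.84 (307) and 1.12 (594). The lung tumors were at -0.51 (323) and -0.45 (307), where the probe was well above background in 323 only. The 2 other Grhl2 probes were dimmer and were well above background on 5 and 4 arrays. Ovol1 was 2.52 in tumor 105, 0.90 in 131, 0.96 in 17 and 1.36 in 85, and -0.12 in tumor 470. In the mammary sarcomatoid tumors it was -0.11 (323), 0.59 (307) and 0.12 (594), and in both lung tumors -0.02, where it was not well above background. Ovol1 thus lay near the reference in all sarcomatoid samples, and the mammary and lung tumors overlapped.

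Among the ETS factors, Elf3 was low in all sarcomatoid samples at both sites. Its log2 ratio was -0.85 (323), -0.79 (307) and -1.03 (594) in the mammary gland and -1.39 (323) and -1.13 (307) in the lung. The adenocarcinomas had 0.90 (105), -0.07 (131), 0.68 (17) and 0.49 (85), and tumor 470 had the lowest value of the 10, at -1.79. The probe was well above background on every array.

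Ehf was high in the mammary gland and near the reference in the lung. It was 4.12 in tumor 105, 4.65 in 131, 3.50 in 17 and 3.71 in 85, and 0.13 in tumor 470. On the scale used here mammary tumor 323 (3.60) lay within the range of the adenocarcinomas, while 307 (2.46) and 594 (1.54) lay below the 4 other than 470. This order did not hold in the authors' normalized table. There, mammary tumor 323 (6.37) was the highest of all tumors. Mammary tumor 307 (5.22) was above adenocarcinomas 105 (4.78), 17 (4.66) and 85 (5.20) and below 131 (5.26), and only 594 (2.84) stayed below those 4. The lung tumors had, on the scale used here, 0.32 (323) and -0.06 (307), not well above background. The fitted difference from the mammary sarcomatoid tumors was -2.40 ± 1.19 (SE), or 5.29-fold lower in the lung, again limited in size by background, and did not pass the test (adjusted p = 0.750 in limma).

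Elf5, the alveolar lineage factor, was far above the reference in all mammary tumors but 470. In the adenocarcinomas it was 5.85 (105), 5.78 (131), 5.53 (17) and 5.33 (85), and 1.44 in tumor 470. In the mammary sarcomatoid tumors it was 5.96 (323), 4.71 (307) and 4.21 (594). The highest of all 10 values was therefore in a sarcomatoid tumor. In the lung tumors it was 1.18 (323) and -0.04 (307, not well above background). In the authors' normalized table Elf5 was 3.57 in tumor 470 and between 6.11 and 7.19 in all other mammary tumors.

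Klf5, unlike the genes above, had a positive fitted difference between lung and mammary sarcomatoid tumors (0.49 ± 0.61 SE), which was within its error. The tumors of the 2 sites overlapped, as they did for Ovol1. Klf5 was low in every sarcomatoid sample, at -1.78 (323), -1.63 (307) and -1.89 (594) in the mammary gland and -0.78 (323) and -1.78 (307) in the lung. The adenocarcinomas had 0.29 (105), 0.21 (131), -1.07 (17), 0.37 (85) and -1.60 (470). All 5 adenocarcinomas were above the 3 mammary sarcomatoid tumors on this scale, but tumors 470 (-1.60) and 307 (-1.63) were close. In the authors' normalized table tumor 470 (-1.94) was below 307 (-1.91), and on the second Klf5 probe tumor 470 (-0.14) was below all 3, so the groups overlapped on both. Trp63 followed the groups least. It was 5.29 in tumor 105, 1.25 in 131, -0.12 in 17, 1.20 in 85 and 1.45 in 470, and 2.51 (323), 0.40 (307) and 1.64 (594) in the mammary sarcomatoid tumors. In the lung tumors it was -0.75 (323, not well above background) and -0.18 (307). Its 2 other probes were well above background on 2 arrays and 1 array.

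Rab25, the GTPase, varied little in the adenocarcinomas other than 470. The log2 ratio was 2.84 in tumor 105, 2.87 in 131, 2.52 in 17 and 2.80 in 85, and -0.13 in tumor 470. The mammary sarcomatoid tumors had 1.85 (323), 1.91 (307) and 1.36 (594), and the lung tumors 0.16 (323) and -0.12 (307). The 4 adenocarcinomas other than 470, the 3 mammary sarcomatoid tumors and the 2 lung tumors formed 3 ranges that did not overlap, and the probe was well above background on all arrays.

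The sarcomatoid and adenocarcinoma groups were compared, which differ in histology but also in genotype, culture and site. Tumor 594 is labelled sarcomatoid carcinoma and the other sarcomatoid samples sarcomatoid adenocarcinoma, so the contrast is not one of non-glandular against glandular tumors alone. With all 10 tumors the fitted log2 difference was below -1 for all 10 genes, against 2.09% of all probes, with a median of -1.40 against -0.00 over all probes. None of them passed an adjusted p of 0.05 in limma, and neither did any other probe (0%), with adjusted p-values of the 10 genes from 0.423 to 0.785. At an unadjusted p under 0.05, 5 of the 10 were lower, against 5.09% of all probes, as were 4053 probes in either direction. The 5 were Esrp1 (-1.76 ± 0.63 SE), Grhl2 (-2.25 ± 0.996), Ovol1 (-1.01 ± 0.41), Elf3 (-1.08 ± 0.45) and Klf5 (-1.21 ± 0.42). For no gene did the groups separate, against 0.682% of probes with all sarcomatoid values lower.

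Without tumor 470, which these genes themselves set apart, Esrp1 and Elf3 passed the threshold. Esrp1 was lower by a log2 difference of -2.31 ± 0.41 (SE; adjusted p = 0.0370 in limma), or 4.97-fold. Elf3 was lower by -1.54 ± 0.21 (adjusted p = 0.0221), or 2.91-fold. These were 2 of 10 genes, against 0.828% of all probes called lower, and 8 of 10 were lower at an unadjusted p under 0.05, against 7.72%. All sarcomatoid values were below those of the other adenocarcinomas for 5 of 10 genes on the scale used here, against 3.54% of all probes. Esrp1 is among these genes, but its groups overlapped in the authors' normalized table. Grhl2 (-3.14 ± 0.66, adjusted p = 0.0600), Klf5 (-1.52 ± 0.34, 0.0715), Ovol1 (-1.32 ± 0.33, 0.0908) and Rab25 (-1.73 ± 0.44, 0.0989) did not pass. Trp63 gave the highest adjusted p, 0.709. The calls thus rest on leaving out 1 array, and over all alternative settings the adjusted p ranged from 0.0370 to 0.677 for Esrp1 and from 0.0221 to 0.737 for Elf3. With the scanner software version as a term and all 10 tumors, the differences of these 10 genes lay between -2.69 (Grhl2) and -0.98 (Ovol1), and none passed.

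**Figure D2:**
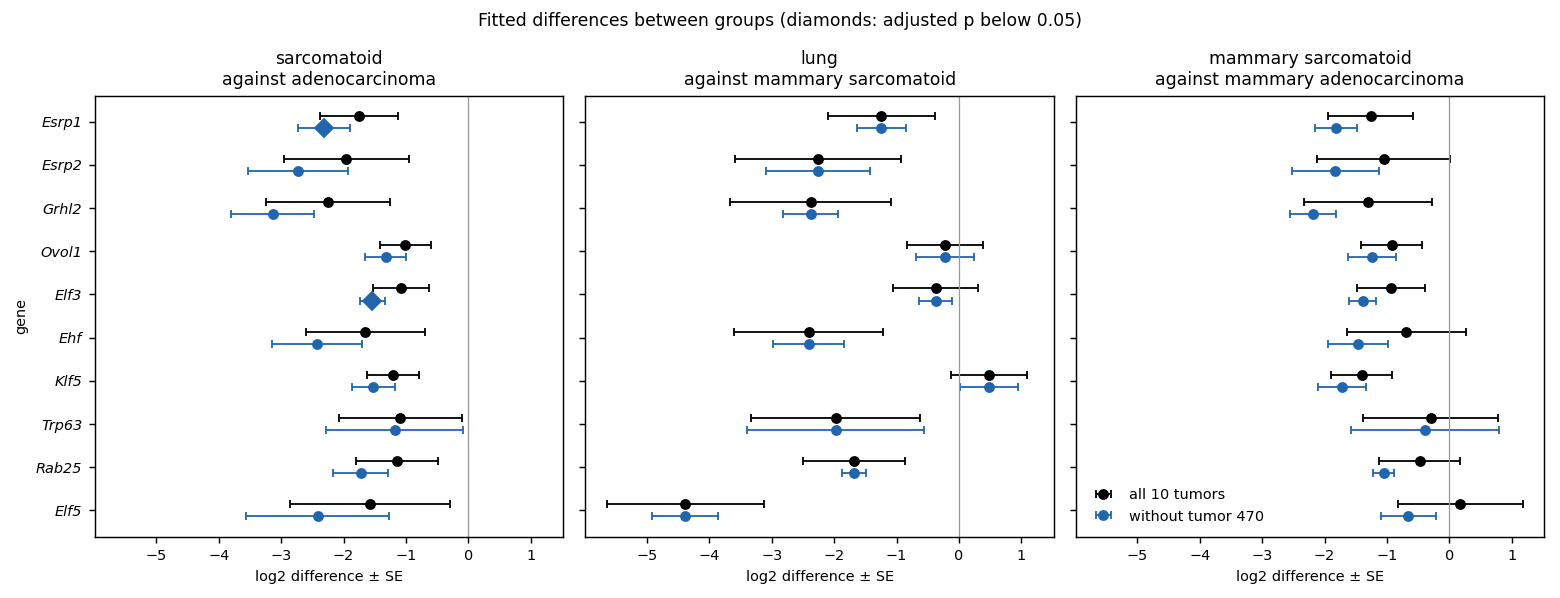
Fitted log2 difference ± SE (x axis) of each gene (y axis) in 3 comparisons, with all 10 tumors (black) and without tumor 470 (blue), diamonds marking an adjusted p below 0.05. Only Esrp1 and Elf3, in sarcomatoid against adenocarcinoma tumors without 470, carry a diamond, and Elf5 has the largest difference, -4.39, between lung and mammary sarcomatoid tumors.

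Within software versions the direction was the same where a lung tumor was on the sarcomatoid side. In the version with both lung tumors and adenocarcinomas 131, 17 and 85, all 10 genes were lower in the lung tumors, by log2 differences from -4.97 (Elf5) to -1.10 (Ovol1). In the version with mammary tumors 307 and 594 and adenocarcinomas 105 and 470, 8 of 10 were lower, and Rab25 (0.28) and Elf5 (0.82) were higher. There the 2 sarcomatoid tumors were lower than tumor 105 for all 10 genes, by -4.27 (Trp63) to -1.21 (Rab25). These counts within versions also stand without a share of all probes.

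The lung tumors were compared with the mammary sarcomatoid tumors, from which they differ in site but also in culture and software version. The fitted difference was negative for 9 of 10 genes, with a median of -1.83 against -0.00 over all probes. In the authors' normalized table the median of the 10 was -3.75. In limma 0 of the 10 genes and 2 of all probes (0.00486%) passed, with adjusted p-values of 0.562 for Elf5 and 0.738 for Rab25. Elf5 was lower by a log2 difference of -4.39 ± 1.26 (SE), 20.9-fold, and was the only gene of the 10 at an unadjusted p under 0.05, against 3.29% of probes lower at that level. For 8 of the 10 genes both lung tumors were below all 3 mammary sarcomatoid tumors, against 14.2% of probes, the exceptions being Ovol1 and Klf5. Without tumor 470, which enters this fit through the shared spread alone, 6 genes were lower at an unadjusted p under 0.05, against 4.09% of probes, and none passed, against 0.0146% of probes, with the lowest adjusted p of 0.0630 for both Rab25 and Elf5 in limma.

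Against the mammary tumor of the same number the lung tumor was lower for 8 of 10 genes in 323 and for all 10 in 307. Elf5 was lower by a log2 difference of -4.77 in 323 and -4.75 in 307, where its lung value was not well above background. In the authors' normalized table these differences were -4.76 and -6.79. For 6 of the 10 genes (Esrp1, Esrp2, Grhl2, Ehf, Rab25 and Elf5) both pairs differed by more than 1 downwards, with Grhl2 at -3.24 and -2.29 and Ehf at -3.28 and -2.52. Background limits the size of both Ehf differences, that of Grhl2 in 307 and those of Esrp1. No share of all probes is set beside these counts over pairs, so whether the genes exceed other probes in them was not tested. Trp63 differed between the pairs, at -3.25 in 323 and -0.57 in 307. Klf5 was higher in lung tumor 323 by 1.001 and nearly equal in 307 (-0.15). With tumor number as a block over these 2 pairs, none of the 10 genes and no probe passed. Lung and mammary sarcomatoid tumors shared no software version, so there is no value within a version. A fit with the version as a term ties the versions through the adenocarcinomas. There Elf5 was at -5.79, Grhl2 at -3.88 and Rab25 at -2.98, while Trp63 was higher in the lung (1.12) and Klf5 was at -0.01. Mammary 323, alone in its version, does not enter these values. Tumors 307 and 594 enter relative to adenocarcinomas 105 and 470, by 0.82 for Elf5, -0.57 for Grhl2 and 0.28 for Rab25. Relative to 105 alone they differed by -1.39, -2.95 and -1.21, so tumor 470 enlarges the lung differences of these genes in this fit.

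**Figure D3:**
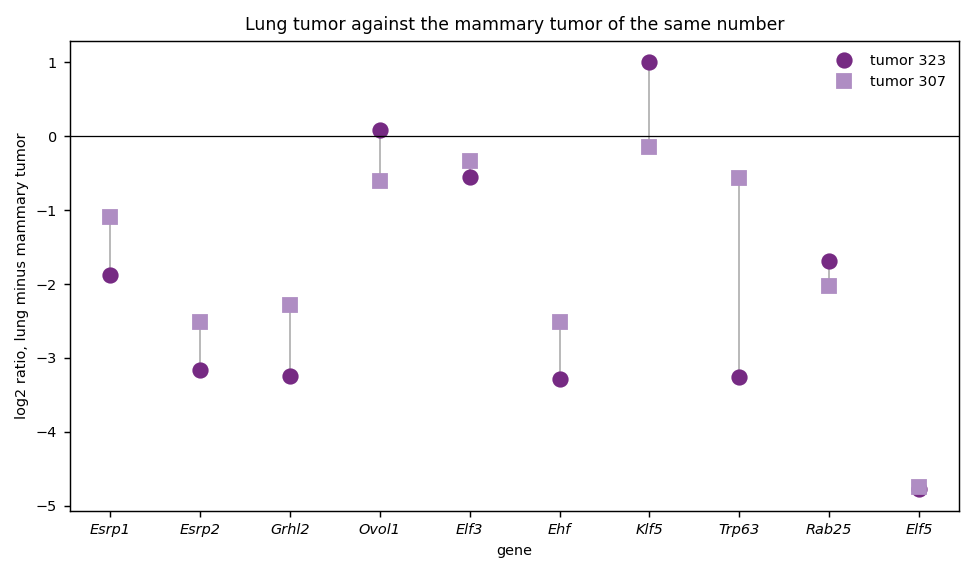
Log2 ratio of the lung tumor minus that of the mammary tumor of the same number (y axis) for each gene (x axis), with circles for tumor 323 and squares for tumor 307. Elf5 has differences of -4.77 and -4.75, the second against a lung value that was not well above background, and only Klf5 (1.001) and Ovol1 (0.08), both in tumor 323, are above 0.

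In the mammary gland alone, sarcomatoid tumors were lower than adenocarcinomas for 9 of 10 genes, with a median log2 difference of -0.93 against -0.01 over all probes. None of the 10 and no other probe passed (0%), and 3738 probes were at an unadjusted p under 0.05 in limma. Klf5 was the only gene of the 10 among them (-1.41 ± 0.49 SE, adjusted p = 0.513), against 4.24% of probes lower at that level. It was also the only one of the 10 whose groups did not overlap on the scale used here, against 2.46% of probes, and they did overlap in the authors' table and on its second probe. Elf5 did not differ beyond its error (0.18 ± 1.01), and neither did Trp63 (-0.30 ± 1.08). Without tumor 470 all 10 were lower with a median of -1.43, and 8 of 10 were at an unadjusted p under 0.05, against 7.84% of probes lower. Rab25 (-1.05 ± 0.17, adjusted p = 0.0523), Elf3 (-1.39 ± 0.22, 0.0538) and Grhl2 (-2.19 ± 0.37, 0.0598) came closest to passing, and 168 probes (0.408%) passed.

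The 10 genes varied together to different degrees. Over the 10 arrays, which include 2 pairs from the same tumors, the Pearson correlation with the mean of the other 9 was 0.98 for Esrp1 and for Grhl2, 0.96 for Rab25 and for Ehf, 0.94 for Esrp2, 0.88 for Elf5, 0.87 for Elf3 and 0.81 for Ovol1. It was 0.67 for Klf5 and 0.54 for Trp63. The mean over the 10 genes was 2.66 ± 0.56 (SD, n = 4) in the adenocarcinomas other than 470, 1.28 ± 0.49 (n = 3) in the mammary sarcomatoid tumors and -0.36 ± 0.11 (n = 2) in the lung tumors, and was -0.13 in tumor 470. Of 13849 other named genes detected on at least 8 arrays, Krt79, a keratin, was most like this mean (r = 0.98, n = 10), followed by the membrane protease gene St14, Unc5cl, Clmn and the desmosomal plakophilin Pkp3 (all r = 0.98). At the other end were Tpcn2 (r = -0.95), Golm1, Frmd6, Apbb1 and Plekho2. In all, 146 genes had r above 0.9 and 17 below -0.9.

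Other regulators of the epithelial state had differences of the same sign. Of 13 genes on this list 12 had a probe, and all 12 were lower in sarcomatoid tumors (median log2 difference -1.43), with none past the test and 5 at an unadjusted p under 0.05, against 5.09% of all probes lower. Without tumor 470, 4 of the 12 passed, against 0.828% of all probes. These were Zfp750, a keratinocyte differentiation factor (-2.43 ± 0.34 SE, adjusted p = 0.0241), Tfcp2l1 (-2.27 ± 0.44, 0.0478), the RNA-binding Rbm47 (-1.95 ± 0.37, 0.0431) and Tfap2a (-1.07 ± 0.19, 0.0360). In the lung tumors 7 of the 12 were lower and 5 higher than in the mammary sarcomatoid tumors. Grhl1, the paralog of Grhl2, was at -0.76 in the lung and 1.62 in the mammary sarcomatoid tumors. Gata3, the luminal factor, was at 0.08 in the sarcomatoid and 0.10 in the adenocarcinoma group.

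Described targets of GRHL2 also had the sign of Grhl2. Cdh1 (E-cadherin), Cldn4, Erbb3 and Spint1 were all lower in sarcomatoid tumors (median -1.39), with 0 past the test. Cldn4 alone was at an unadjusted p under 0.05, against 5.09% of all probes lower. Spint1, which encodes a protease inhibitor of epithelial cells, passed between the lung and mammary sarcomatoid tumors (-3.15 ± 0.28 SE, adjusted p = 0.0380 in limma), with means of 0.29 and 3.43. It was the only 1 of the 4 to pass there, against 0.00486% of all probes in either direction. It was at 3.41 in tumor 470, where Grhl2 itself was at -0.33. Cdh1 was at 1.02 in the lung and 3.84 in the mammary sarcomatoid tumors. The transcripts that ESRP proteins splice showed small differences in level, from -0.33 (Enah) to 0.50 (Cd44), 0 of 4 past the test. Between lung and mammary sarcomatoid tumors 3 of the 4 were lower (median -0.51). Enah, at -1.24 ± 0.51 (SE, adjusted p = 0.682 in limma), was the only one at an unadjusted p under 0.05, against 3.29% of all probes lower. The exons of these transcripts were not measured here.

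Of the basal genes tied to p63, all 7 were lower in sarcomatoid tumors (median -1.24) and none passed. At an unadjusted p under 0.05 were 2 of them, against 5.09% of all probes lower. Without tumor 470, 4 of the 7 were at that level, against 7.72%, and 1 of the 7 passed, against 0.828% of all probes called lower. This was Itga6, an integrin of the basal attachment, lower by -1.86 ± 0.26 (SE, adjusted p = 0.0235 in limma). All 6 prolactin and milk genes linked to ELF5 were lower as well (median -0.97), 0 past the test, with Csn3 at 1.16 in the sarcomatoid and 3.64 in the adenocarcinoma group. The mean of the 6 was 0.42 ± 0.23 (SD, n = 3) in the mammary sarcomatoid tumors, where Csn3 was at 1.79, Csn2 at 0.88 and Lalba at -0.63, and it was 1.88 ± 1.34 (n = 4) in the adenocarcinomas other than 470.

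The EMT factors Snai1, Snai2, Twist1, Zeb1 and Zeb2 were higher in sarcomatoid tumors for 5 of 5, with a median of 1.46, none past the test and 4 at an unadjusted p under 0.05, against 4.75% of all probes higher. Without tumor 470, Zeb1 (1.94 ± 0.34 SE, adjusted p = 0.0364) and Zeb2 (2.59 ± 0.36, 0.0236) passed, against 0.707% of all probes higher. Their 5-gene mean was between 0.14 and 0.89 in the sarcomatoid samples, 0.66 in tumor 470 and between -2.00 and -0.76 in the other adenocarcinomas. Between lung and mammary sarcomatoid tumors it differed little (0.51 and 0.44), while the mean of the 10 epithelial genes was -0.36 and 1.28.

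Luminal markers moved with these values, and markers of other cell types did so in part or not at all. The mean of 6 luminal markers (Krt8, Krt18, Krt19, Epcam, Cldn3 and Cldn7) was 2.15 to 2.59 in the adenocarcinomas other than 470, 0.04 to 0.67 in the mammary sarcomatoid tumors, -2.82 and -2.61 in the lung tumors and -2.43 in tumor 470. All 6 were detected on all 10 arrays. Of 7 myeloid markers, 7 were higher in sarcomatoid tumors and none passed the test. At an unadjusted p under 0.05 were 6 of them, against 4.75% of all probes higher. Without tumor 470, 2 of the 7 passed, against 0.707% of all probes higher. The myeloid mean was 1.52 to 2.22 in the sarcomatoid samples, 1.90 in tumor 470 and -0.40 to 1.05 in the other adenocarcinomas. Of 7 fibroblast and stromal markers 7 were higher (median 0.75), 0 past the test, with a mean of 1.14 in tumor 470, -2.78 to -0.24 in the other adenocarcinomas and -1.74 to 1.27 in the sarcomatoid samples. In the lung and mammary sarcomatoid tumors the myeloid mean was nearly equal, at 2.06 and 1.98. The fibroblast and stromal mean was -0.17 ± 2.03 (SD, n = 2) in the lung and -0.71 ± 1.22 (n = 3) in the mammary sarcomatoid tumors. Skeletal muscle markers were highest in tumors 105 (5.04), 470 (3.31) and 594 (2.58). The part of these cells in the values of the 10 genes was not tested. The 7 lung epithelial markers had a mean of -0.02 and 0.22 in the lung tumors, within their range in the mammary tumors (-0.05 to 0.39), and Sftpa1 was not above background on any array. The 6 skin keratinocyte markers were lower for 6 of 6 (median -0.41), the 5 T cell markers for 3 of 5 (-0.03) and the 5 adipocyte markers for 3 of 5 (-0.39), 0 of each past the test. Between lung and mammary sarcomatoid tumors 4 of the 5 T cell markers were lower (median -0.92), 0 past the test. Cd3g (-1.73) and Cd8a (-1.51) were at an unadjusted p under 0.05, against 3.29% of all probes lower.

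**Figure D4:**
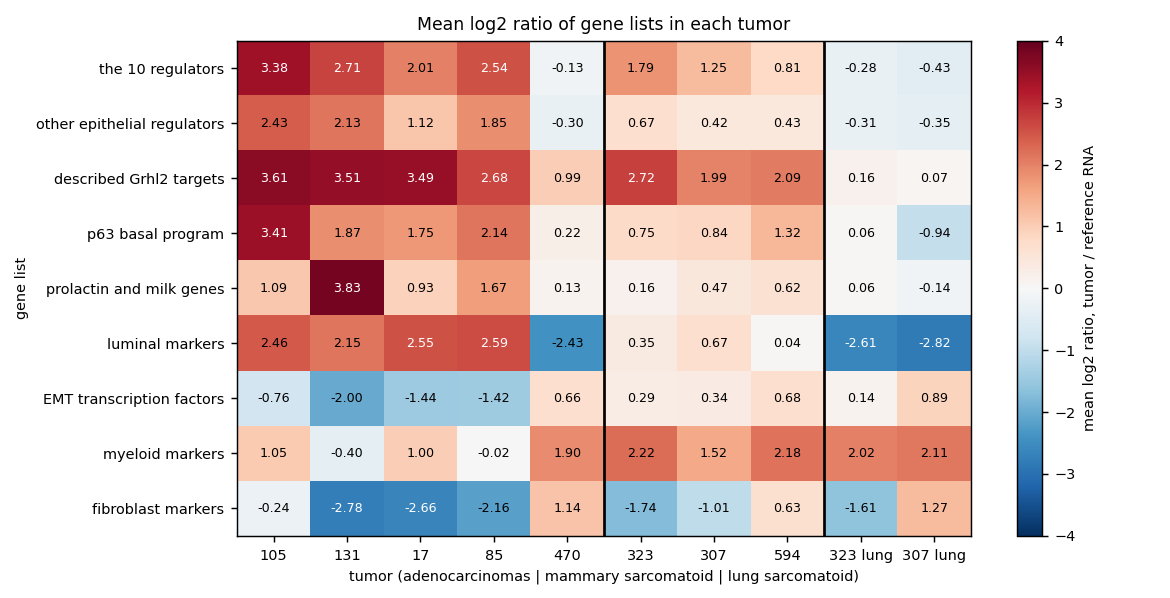
Mean log2 ratio of tumor over reference RNA (colour and printed value) of 9 gene lists (rows) in the 10 tumors (columns, with lines between adenocarcinomas, mammary sarcomatoid and lung sarcomatoid tumors). Adenocarcinoma 470 and the lung tumors share means below 0 for the 10 regulators and between -2.82 and -2.43 for the luminal markers, while the EMT factors are above 0 in all sarcomatoid samples and in 470.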

How the data were processed

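RNA of 10 tumors had been hybridised by the authors against a common reference on 2-colour Agilent arrays. The deposited scanner files give spot intensity in both channels and a log10 ratio, and the authors also deposited a log2 table normalized with limma (version not given in the sources used here), whose column medians lay between -0.05 and 0.07. Its background correction, and whether spots were filtered, are not stated. Here median intensities were corrected by normexp (offset 50), normalized by loess within each array with control spots and the scanner's outlier spots at weight 0, and averaged per probe without the outlier spots. Columns of the authors' table were matched with arrays by the sample identifiers in the labels. The log2 ratios obtained here correlated with their own column at 0.81 to 0.95, and with another at 0.76 at most.

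Probes were named by accession (22951), symbol (6659) or synonym (3109) in the RefSeq gene table, and 8455 stayed unnamed. The brightest probe in red stood for a gene. limma 3.58.1 (R 4.3.3) was fitted over 41174 probes, with group as the only term for sarcomatoid against adenocarcinoma and with 3 groups for the comparisons by site, two-sided, with Benjamini-Hochberg adjustment over all probes and a threshold of 0.05. The fit was run on simulated data with independent arrays. These held no pairs, software versions or outlying tumor, so the run cannot speak for the p-values of data that do. Replicates are single tumors, except that 323 and 307 each gave 2 samples, so p-values treat related samples as separate. Lung and mammary samples of 323 and of 307 come from the same tumor, and the numbers therefore pair them; their deviations from the group means correlated at 0.15 over the 2 pairs. The number of arrays limits the precision. The members and the gene lists were chosen with earlier results of these data known; all members were named, with list genes where their values are given. Figures were drawn with matplotlib 3.10.9.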

Additional observations from a re-analysis of the deposited data

Results flagged for a closer look

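In 22 groups of 5 tumors (the 10 genes and their mean, in each histology) 5 held a tumor set apart from the rest by Dixon's 95% limit. Chance gives about 1.1 over separate groups, but 4 of the 5 are the same tumor in genes that vary together, so that they are not separate. Tumor 470 was the low one among the adenocarcinomas for Grhl2 (-0.33, against 3.65 to 4.43 in the others), Ehf (0.13, against 3.50 to 4.65), Rab25 (-0.13, against 2.52 to 2.87) and Elf5 (1.44, against 5.33 to 5.85). The lung tumor of 323 was the high one among the sarcomatoid samples for Klf5 (-0.78, against -1.89 to -1.63). Tumor 470 had the muscle and stromal marker values given in the report, and their part in its low regulator values was not tested.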

How the results depend on the processing

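Over 23 alternative settings of the array processing, the model and the tumors included, the direction of all 10 genes in sarcomatoid against adenocarcinoma tumors was kept in 230 of 230 values, and 228 stayed on the same side of the threshold. The other 2 are Esrp1 and Elf3, past it without tumor 470. Probes called in that comparison were 0, but 1 with median centring, 3 with slide as a block, 3 with 1 value per tumor number and 0 to 632 on leaving out each tumor in turn, and genes called among the 10 then ranged from 0 to 2. Between lung and mammary sarcomatoid tumors 2 probes were called, but 10 in the deposited table, 7 with array weights, 0 with the software version as a term, 0 with the mean over the probes of a gene, 0 with the replicate block of tumor numbers over 2 pairs (5122 at an unadjusted p under 0.05) and 0 to 34 on leaving out each tumor. The median of the 10 genes there was -3.75 in the deposited table, against -1.83. Between mammary groups 0 probes were called, but 4 with the version as a term and 0 to 168 on leaving out each tumor. Signs turned in 4 of 230 values for lung against mammary tumors, namely Ovol1 without background subtraction (0.0229), Klf5 (-0.0139) and Trp63 (1.12) with the version as a term, and Klf5 without 323 lung (-0.0168, with a range to 0.988 over the tumors left out). In the mammary gland 8 of 220 turned, namely Elf5 with median centring (-0.0375), array weights (-0.19), without 323 (-0.32) and without 470 (-0.66, with a range to 0.55 over the tumors left out), Ehf in the deposited table (0.76), Rab25 with the version as a term (0.28), and Trp63 without 307 (0.26) or without 105 (0.57, with a range from -0.80). None of these turned values had passed a test. Dim probes limit the lung tumors, where 3 of the 10 genes were not well above background on either array.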
